A study of Mus musculus with 5 samples.

Results

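The Snai, Zeb, Twist and Prrx genes were followed while mouse embryonic fibroblasts (MEFs) were cultured in a medium that induces neuron-like cells. The set holds 8 genes, Snai1, Snai2, Zeb1, Zeb2, Twist1, Twist2, Prrx1 and Prrx2, chosen by name as transcription factors of mesenchymal cells and of the epithelial to mesenchymal transition (EMT), out of 27729 genes in the deposited files. MEFs of ICR mice were grown in DMEM with serum and then changed to 5C medium, a defined medium without serum that holds N2 supplement (a source of insulin), bFGF, LIF, vitamin C and 2-mercaptoethanol. Total RNA was sequenced on day 0, before the change of medium, and after 2, 5, 10 and 14 days, with 1 library per day and no replicate. The sample labels call the medium 6C and state 5000 cells per well, and their treatment text gives day 15 as the last day where the label of the library gives day 14. The MEFs came from whole mid-gestation embryos without head and internal organs, so the starting culture may hold several cell types, and the labels name no sorting of cells. The published methods describe a short trypsin step with washes to enrich strongly attached MEFs. It is said there to have removed weakly attached cells and those with neurogenic potential.

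EMT is the process by which cells of an epithelium give up their junctions and polarity and become motile mesenchymal cells, and MET is the reverse. Snai and Zeb proteins are zinc finger repressors that bind E-box sequences in promoters of epithelial genes such as Cdh1 (E-cadherin), Twist proteins are basic helix-loop-helix (bHLH) factors that pair with E proteins, and Prrx proteins are paired-related homeobox factors of limb and head mesenchyme. All of these genes are active in embryonic mesenchyme, and several also act in the neural crest, where cells leave the neural tube by EMT.

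All 8 genes were measured in all 5 libraries, with 38 to 1700 expected counts, which are the estimated numbers of reads per gene. The libraries held between 2253748 (day 2) and 3890334 (day 0) expected counts. Levels within a library are given as TPM, a unit that corrects for gene length and for library size. Changes are log2 ratios of counts normalised for library size by TMM, with a pseudocount of 1. With 1 library per day there was no test, and the 95% intervals in parentheses are exact Clopper-Pearson intervals that cover counting error only. A gene is said to have risen or fallen where its ratio passed 2-fold and its interval left out no change, and this wording describes these libraries, not the conditions. In bulk RNA, fewer cells of a type and less RNA per cell cannot be told apart.

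Zeb1 and Zeb2 rose, Twist2, Prrx1 and Prrx2 fell, and Snai1, Snai2 and Twist1 were within 2-fold of day 0 at the end of the series. On day 14, Zeb2 was 4.97-fold and Zeb1 3.16-fold above day 0, whereas Twist2 was 6.53-fold, Prrx2 3.57-fold and Prrx1 2.82-fold below it. In TPM these 5 genes had the same directions on day 14, but Prrx1 and Prrx2, at −0.62 and −0.91 on the log2 scale, were within 2-fold. The families did not move as units. Of the Twist pair only Twist2 had fallen on day 14. In all 4 pairs the split of the counts between the paired genes differed between some libraries, with intervals that did not overlap. The sum of the 8 levels was 465 TPM on day 0 and 239, 438, 524 and 431 TPM in the later libraries in turn, and was lowest on day 2. That library stood apart in its make-up, with 4.79% of its counts in Gm42418 (0.0484% to 0.109% in the others) and 14.2% in its 10 most abundant genes (6.30% to 8.57%), and the part of this in the low sum was not tested. The sum moves with the scale of TPM, whose median over all genes differed between days. Prrx2 made up 47.4% of it on day 0 and 27.1% on day 14, whereas Zeb2 made up 4.84% on day 0 and 23.8% on day 14.

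**Figure D1:**
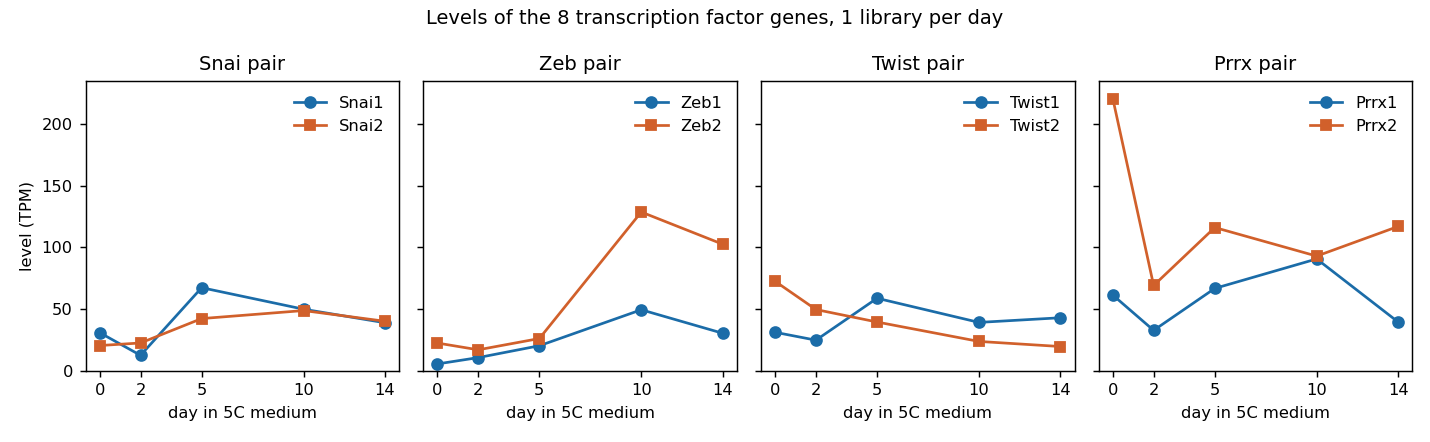
Level in TPM (linear axis, from 0) of each gene by day of 5C medium, with 1 point per library and 1 panel per family. Zeb2 stood at 129 TPM on day 10 from 22.5 TPM on day 0, while Prrx2 stood at 220.5 TPM on day 0 and between 69.2 and 117 TPM afterwards.

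Snai1 (Snail) and Snai2 (Slug) are zinc finger repressors of epithelial genes. Snai1 lies on chromosome 2 (GRCm38, 167538195 to 167542814, plus strand) and Snai2 on chromosome 16 (14705852 to 14709385, plus strand), and the deposited files list 1 transcript of each. The letters CACCTG, read on either strand, are the E-box that Snai and Zeb proteins are known to bind, and they were searched for, on both strands, in the RefSeq promoter windows of GRCm38.p6, from 250 bases before to 50 bases after each start. Such a match is a description of the window and not a binding site. It was present in 22.6% of the 27025 genes with a window (20.2% of 32851 windows), and in 1 of the 6 members in the table, Snai1, with its first base 126 bases before the start. Snai2 and Zeb1 had no entry in the table. The 250 bases before the start are shown for Snai1, the 1 member with the E-box, and for a pair of genes of the epithelial list, Epcam and Krt18, on which these factors are thought to act, with each E-box, or its reverse complement, in capitals and every sequence read in the direction of its gene.
Snai1 (chr2:167537945-167538194, plus strand): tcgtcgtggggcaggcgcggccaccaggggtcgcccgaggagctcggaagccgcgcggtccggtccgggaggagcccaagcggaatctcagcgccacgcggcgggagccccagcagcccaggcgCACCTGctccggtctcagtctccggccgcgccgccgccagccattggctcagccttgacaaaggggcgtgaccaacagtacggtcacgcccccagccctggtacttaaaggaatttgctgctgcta
Epcam (chr17:87635729-87635978, plus strand): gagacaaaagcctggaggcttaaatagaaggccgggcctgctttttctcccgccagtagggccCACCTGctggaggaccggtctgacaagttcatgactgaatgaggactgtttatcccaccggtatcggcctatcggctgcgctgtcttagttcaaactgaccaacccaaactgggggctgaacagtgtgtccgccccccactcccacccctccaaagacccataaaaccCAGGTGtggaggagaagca
Krt18 (chr15:102027966-102028215, plus strand): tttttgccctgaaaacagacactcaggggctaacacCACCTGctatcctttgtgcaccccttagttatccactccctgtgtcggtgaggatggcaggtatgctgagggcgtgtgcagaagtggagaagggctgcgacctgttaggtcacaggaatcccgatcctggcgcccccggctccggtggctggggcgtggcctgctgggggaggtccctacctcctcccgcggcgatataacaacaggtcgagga
The Epcam window held 2 of these E-boxes, with first bases 187 and 19 bases before the start, and that of Krt18 held 1, at 214 bases. Of the 14 genes of the epithelial list in the table, 12 held the E-box, against 1 of 11 mesenchymal genes, 0 of 6 bHLH partners and their inhibitors, 1 of 14 corepressors, 2 of 14 stability regulators, 3 of 15 other EMT transcription factors and 2 of 14 genes for upstream signals. Of the marker lists, that of neurons had the E-box in 3 of 7 genes, those of macrophages and adipocytes in 1 of 7 and 1 of 4, and the other 6 in 0. The epithelial list was drawn up from genes known as targets of these repressors, so its share is not independent of the motif. The related letters CATCTG, also read on both strands, were found in 19.2% of genes, in 0 of the 6 members and in 1 of the 14 epithelial genes.

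Snai1 stood at 30.9 TPM before the change of medium and at 12.5, 67.4, 50.0 and 39.0 TPM on the 4 later days, from 143, 38, 216, 143 and 109 expected counts. It fell 2.04-fold by day 2 (log2 change −1.03, −1.60 to −0.52) and rose 2.72-fold from day 2 to day 5 (log2 1.45, 0.96 to 2.00). The fall on day 2 rests on 38 counts and lay close to the 2-fold line. With TMM scaling Snai1 was at 0.41 (0.11 to 0.73), −0.47 (−0.82 to −0.13) and −0.53 (−0.91 to −0.17) against day 0 in the last 3 libraries, and the last 2 of these values turned positive in TPM, at 0.68 and 0.32. The median change of all genes was itself higher in TPM than with TMM, by 0.56, 0.95 and 0.72 in the last 3 libraries (on day 2 it shifted by −0.17), and relative to the median of each scale Snai1 was below on both days, by −0.61 and −0.60 with TMM and by −0.42 and −0.46 in TPM.

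Snai2 stayed within 2-fold of day 0 in every library with TMM. Its levels were 20.5, 22.6, 42.4, 48.8 and 40.2 TPM in the order of the days. The changes with TMM on the 4 later days were 0.40 (−0.02 to 0.81), 0.34 (−0.01 to 0.69), 0.09 (−0.26 to 0.43) and 0.10 (−0.26 to 0.46), and all 4 intervals held 0. In TPM its change passed 2-fold on day 5 (1.01) and day 10 (1.21), where the median of all genes was at 0.61 and 1.09. Between the paralogs, Snai2 held 45.4% of the counts of the pair at the start (39.3 to 51.7), 69.4% on day 2 (60.4 to 77.3), then 44.1% (39.0 to 49.2), 55.1% (49.4 to 60.6) and 56.4% (50.0 to 62.6). The share on day 2 stood apart from those of days 0 and 5, as the intervals did not overlap. A share within a library does not depend on the scaling between libraries, but which member moved does. With TMM on day 2, Snai1 was at −1.03 and Snai2 at 0.40, the latter with an interval that held 0.

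Zeb1 and Zeb2 are large zinc finger and homeodomain repressors that share the E-box with Snai proteins, and Zeb2 also has known roles in neural crest and Schwann cell development. Zeb1 lies on chromosome 18 (5591860 to 5775467, plus strand) and Zeb2 on chromosome 2 (44983632 to 45117395, minus strand). Zeb1 stood at 5.57 TPM before the change of medium and at 10.7, 20.3, 49.5 and 30.4 TPM after it. It was the lowest of the 8 genes on days 0, 2 and 5. On day 2 it was at 0.94 (0.51 to 1.40), just under 2-fold, and the rise then measured 1.22 (0.87 to 1.62), 1.92 (1.60 to 2.29) and 1.66 (1.33 to 2.05) on the log2 scale in the next 3 libraries. In TPM these changes were 0.83, 1.70, 2.94 and 2.26.

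Zeb2 stood at 22.5 TPM before the change of medium, at 17.0 and 26.2 TPM on the first 2 later days, and at 129 and 103 TPM on the last 2, from 175, 73, 266, 1700 and 967 expected counts. Its rise came between day 5 and day 10, when it rose 5.21-fold (log2 2.38, 2.20 to 2.57), and it was 6.98-fold above day 0 on day 10 (log2 2.80, 2.58 to 3.04). On day 10 its level was above that of 89.9% of the 14372 genes with 1 TPM or more, against 62.9% of 11861 such genes on day 0. Before that it was at −0.39 (−0.81 to 0.01) and 0.42 (0.15 to 0.71), and from day 10 to day 14 it changed by −0.49 (−0.61 to −0.38). In TPM the change on day 10 was 2.47, and the change on day 5, at 0.21, was below the median of all genes in TPM, whereas with TMM it was above the median.

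The length that RSEM gave for Zeb2, an average over its transcripts weighted by their estimated amounts, was 2710, 2282, 5108, 7452 and 5434 bases in the order of the days. The files list 14 transcripts of Zeb2, which are between 432 and 9124 bases long in GENCODE M21, and 9 of Zeb1. The length of Zeb1 lay between 4397 and 5648 bases in all libraries. TPM divides by this length, so the estimated transcript mix of Zeb2 enters its level. Zeb2 held 67.4% of the counts of the Zeb pair at the start (61.5 to 73.2), 45.1% (37.2 to 53.1) and 54.3% (49.8 to 58.8) on the next 2 days, and 79.2% (77.4 to 80.9) and 76.4% (74.0 to 78.8) on the last 2. In TPM the order differed, with Zeb2 at 80.1%, 61.4%, 56.3%, 72.2% and 77.1% from first to last. On both scales the share of Zeb2 was lower on days 2 and 5 than on days 0, 10 and 14, but whether it was higher on day 10 than on day 0 depended on the scale.

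Markers of other cell types moved in the same days. Their sums are in TPM, in which the median log2 change of all genes was −0.20, 0.61, 1.09 and 0.78 on the later days in turn. A sum that moved less than this median was lower relative to it. The 11 Schwann cell and neural crest markers summed to 20.4, 21.8, 233, 2221 and 2315 TPM in the order of the days, and 11 of 11 were over 2-fold above day 0 on days 10 and 14, with Ngfr highest on day 14 at 757 TPM. The 11 macrophage markers summed to 56.6 TPM on day 0 and between 463 (day 2) and 1592 (day 5) afterwards, with 9 of 11 above and Lyz2 highest on day 14. The 5 adipocyte markers went from 47.4 to 1992 TPM by day 14 (Fabp4 highest) and the 4 astrocyte markers from 3.70 to 81.1 TPM (Aldh1l1 highest), 4 of each list being over 2-fold above day 0 on day 14. The 8 fibroblast markers summed to 3037 TPM on day 0, 1709 on day 2 and 9209 on day 14, 3 of 8 being over 2-fold above and 2 below day 0 on day 14 (Col3a1 highest). Markers of the labelled cell type were thus detected in every library, but their sum in bulk RNA does not give the share of fibroblasts. The 7 skeletal muscle markers went from 214 to 11.8 TPM (3 kept, all 3 below on day 14, Des highest), the 6 bone and cartilage markers from 56.5 to 13.4 TPM (4 kept, 1 above and 2 below, Sox9 highest) and the 4 endothelial markers from 14.2 to 0.93 TPM (2 kept, 1 below, Kdr highest). The 10 neuron markers summed to 103 TPM on day 0, 52.9 TPM on day 2 and 120 TPM on day 14 (5 kept, 3 above and 2 below, Tubb3 highest), and Rbfox3, a marker of mature neurons, and Myf5, a myogenic factor, were at 0 in every library. Between days 5 and 10, when Zeb2 rose, most of these sums were higher on day 10. They were those of the Schwann cell and neural crest list, the adipocyte list (408 to 1243 TPM), the astrocyte list (51.7 to 111 TPM) and the fibroblast list (5506 to 9192 TPM). The sums of the neuron list (73.1 to 90.5 TPM), the bone and cartilage list (20.2 to 21.1 TPM) and the endothelial list (1.47 to 3.42 TPM) were also higher. Those of the macrophage list (1592 to 1142 TPM) and the skeletal muscle list (35.6 to 15.8 TPM) were lower. The median of all genes in TPM was itself higher on day 10 (1.09) than on day 5 (0.61). The neuron sum and the bone and cartilage sum rose by less than this median did, so relative to it they were lower on day 10. The part of these cell types in the changes of the 8 genes was not tested.

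Twist1 and Twist2 (Dermo1) are bHLH factors of head, limb and dermal mesenchyme. Twist1 lies on chromosome 12 (33957671 to 33959829, plus strand) and Twist2 on chromosome 1 (91801461 to 91848028, plus strand). The levels of Twist1 were 31.2 TPM in MEFs and 24.8, 58.8, 39.2 and 43.0 TPM in the 5C libraries. With TMM its changes were −0.07 (−0.49 to 0.34), 0.21 (−0.11 to 0.53), −0.83 (−1.20 to −0.47) and −0.41 (−0.77 to −0.05), and the last 2 turned positive in TPM (0.32 and 0.45) although both lay below the median of all genes on that scale. From day 5 to day 10 it fell 2.04-fold with TMM (log2 −1.03, −1.39 to −0.70), a change that was within 2-fold in TPM (−0.57), with total counts without the most abundant genes (−0.98) and, by a small margin, with a pseudocount of 5.

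Twist2 was the gene with the lowest ratio to day 0 among the 8 on days 10 and 14. It stood at 72.6 TPM in MEFs and at 49.7, 39.6, 23.8 and 19.7 TPM in the 5C libraries, and in TPM each library was below the one before it. Its log2 changes were −0.29 (−0.61 to 0.02), −1.57 (−1.92 to −1.25), −2.74 (−3.21 to −2.35) and −2.71 (−3.21 to −2.27), so it had fallen past 2-fold from the third library on. In TPM the changes were smaller, at −0.54, −0.86, −1.57 and −1.83, and relative to the median of all genes in TPM they were −1.47, −2.66 and −2.62 on days 5, 10 and 14. Twist2 held 65.6% (60.9 to 70.2) and 62.1% (55.0 to 68.9) of the counts of the Twist pair in the first 2 libraries, and 35.6% (30.1 to 41.4), 33.3% (26.3 to 41.0) and 27.6% (21.1 to 35.2) in the last 3. The pair thus went from mostly Twist2 to mostly Twist1 between days 2 and 5, and in TPM the share of Twist2 likewise was 69.9% and 66.7% before and 40.2%, 37.8% and 31.4% after. The expected counts of Twist1 and Snai1 were whole numbers in all 5 libraries, those of Prrx2 in 4, those of Snai2, Zeb1, Zeb2 and Prrx1 in 1, and those of Twist2 in 0. RSEM gives fractions where it shares reads between genes.

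**Figure D2:**
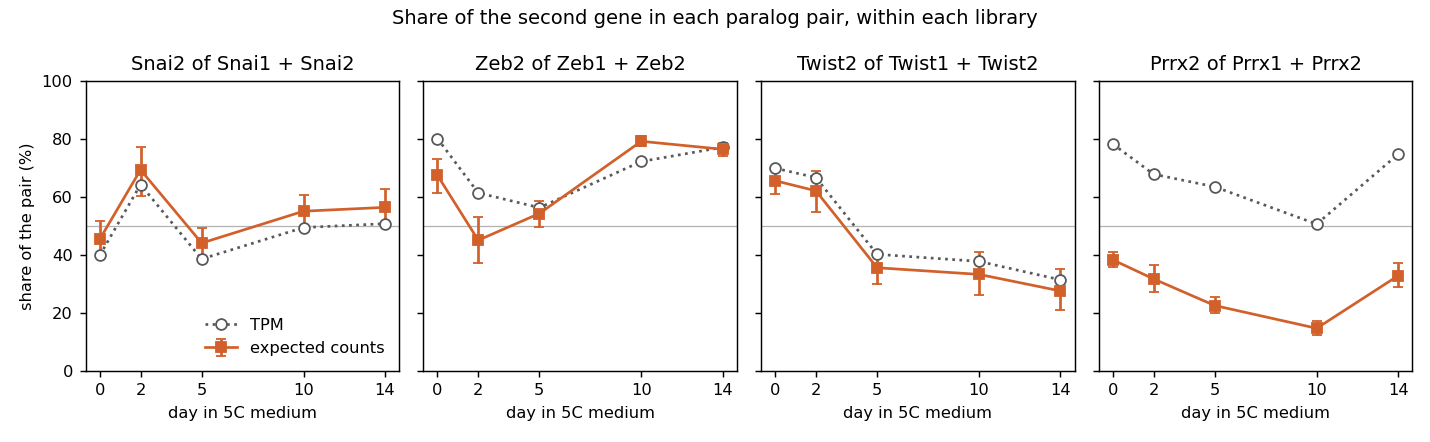
Share of the second gene in each paralog pair within each library, in percent, by day of 5C medium. Squares are shares of the expected counts with exact 95% counting intervals, open circles are shares of TPM, and the grey line marks 50%. Twist2 went from 65.6% to 27.6% of the counts of its pair, and the shares by counts and by TPM lie far apart for the Prrx pair.

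Prrx1 and Prrx2 are homeobox factors of limb, head and skeletal mesenchyme, and Prrx1 is often used as a marker of embryonic fibroblasts. Prrx1 lies on chromosome 1 (163245119 to 163313710, minus strand) and Prrx2 on chromosome 2 (30834972 to 30881251, plus strand). Prrx1 stood at 61.4 TPM in MEFs and at 32.8, 66.8, 90.7 and 39.5 TPM afterwards. Its log2 changes with TMM were −0.89 (−1.09 to −0.69), −0.59 (−0.74 to −0.45), −0.67 (−0.81 to −0.53) and −1.50 (−1.68 to −1.32), past 2-fold in the last library alone, and in TPM the values of days 5 and 10 turned positive, at 0.12 and 0.56, and that of day 14 was −0.62. On every day Prrx1 lay below the median of all genes on both scales. From day 10 to day 14 it changed by −0.82 (−1.01 to −0.64) with TMM and by −1.18 in TPM.

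Prrx2 had the highest level of the 8 genes in 4 of the 5 libraries, all but day 10. Its level was 220.5 TPM in MEFs and 69.2, 116, 93.0 and 117 TPM afterwards, and on day 0 its level was above that of 94.2% of the genes with 1 TPM or more. Its log2 changes were −1.31 (−1.60 to −1.02), −1.68 (−1.93 to −1.45), −2.51 (−2.81 to −2.25) and −1.84 (−2.10 to −1.59), and it had fallen past 2-fold in every later library. In TPM it was at −1.66, −0.92, −1.24 and −0.91. From day 10 to day 14 Prrx2 moved up by 0.68 (0.35 to 1.02) while Prrx1 moved down. Its share of the counts of the pair declined from 38.3% (35.8 to 40.8) through 31.7% (27.1 to 36.6) and 22.5% (19.8 to 25.5) to 14.7% (12.4 to 17.1), and was 32.8% (28.8 to 37.0) in the last library. Prrx2 transcripts are short and those of Prrx1 long, so by TPM Prrx2 was the larger member on every day, at 78.2%, 67.8%, 63.5%, 50.6% and 74.8% in the order of the days.

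The order of the levels changed with the days. On day 0 it was Prrx2, Twist2, Prrx1, Twist1, Snai1, Zeb2, Snai2 and Zeb1 from high to low, where the neighbours Twist1 and Snai1, and Zeb2 and Snai2, did not differ beyond counting error and the other 5 of 7 neighbouring pairs did. The ratio of the highest to the lowest was 39.6 on day 0 and lay between 5.41 (day 10) and 6.47 (day 2) afterwards. On day 2 the order was Prrx2, Twist2, Prrx1, Twist1, Snai2, Zeb2, Snai1 and Zeb1, and from Twist1 downward no neighbours differed beyond counting error. On day 5 it was Prrx2, Snai1, Prrx1, Twist1, Snai2, Twist2, Zeb2 and Zeb1, with Snai1, Prrx1 and Twist1 not apart from their neighbours among them, nor Snai2 from Twist2. On day 10 Zeb2 led (24.6% of the sum) and stood above Prrx2 beyond counting error, which in turn did not differ from Prrx1, and Snai1, Zeb1, Snai2 and Twist1 followed without differing from their neighbours, above Twist2. On day 14 Prrx2 and Zeb2 led and did not differ from each other, then came Twist1, Snai2, Prrx1 and Snai1 without a gap beyond counting error between neighbours, and Zeb1 and Twist2 were lowest.

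Against the background of all genes, the counts of members past 2-fold were as follows. On day 2, 0 of 8 were over 2-fold above day 0, where 15.2% of the 13346 genes that reached 10 expected counts in any library were, and 2 of 8 (Snai1 and Prrx2) were below, where 13.1% of genes were. On day 5, 1 of 8 (Zeb1) was above and 2 of 8 (Twist2 and Prrx2) were below, with 20.2% of all genes above and 13.6% below. On day 10, 2 of 8 (Zeb1 and Zeb2) were above and 2 of 8 (Twist2 and Prrx2) below, with 28.7% and 22.3% of all genes. On day 14, 2 of 8 (Zeb1 and Zeb2) were above and 3 of 8 (Twist2, Prrx1 and Prrx2) below, with 24.5% and 19.9% of all genes. From day 10 to day 14, 0 of 8 passed 2-fold in either direction with TMM, where 4.73% of genes were above and 8.33% below. In TPM Prrx1 passed it, at −1.18 on the log2 scale, where the median of all genes was −0.24. With 8 genes, 1 gene more or fewer is a large step, and nothing particular to the set is read from these counts. The split of all genes depends on the scaling. In TPM it was 1055 above and 1875 below on day 2 (2023 and 1745 with TMM), 4269 and 531 on day 5 (2690 and 1821), 7057 and 904 on day 10 (3826 and 2974) and 5548 and 930 on day 14 (3268 and 2657), and with total counts without the most abundant genes it was 3832 and 997, 5134 and 2011, and 4264 and 1854 in the last 3 libraries. The median change of the 8 genes was −0.34, 0.27, −0.57 and −0.47 over the later days in turn, beside −0.03, 0.05, 0.14 and 0.07 for all genes.

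Changes went with gene length in the later libraries, and the 8 genes differ in length. When the 13346 genes were put into 10 groups of like mean length, the median change on day 10 went from −1.47 in the shortest group to 1.04 in the longest. On day 2 the trend was smaller and ran the other way, from 0.22 to −0.16. Prrx2 was in the shortest group and Twist2 in the group next to it, whereas Zeb1, Zeb2 and Prrx1 were all in the next to longest group, whose median on day 10 was 0.79. Against the median of its own length group on day 10, Zeb2 was higher by 2.01, Zeb1 higher by 1.13, Prrx2 at −1.04, Prrx1 at −1.46 and Twist2 at −1.88 on the log2 scale. On day 14 these differences were 1.85 for Zeb2, 1.20 for Zeb1, −0.79 for Prrx2, −1.96 for Prrx1 and −2.16 for Twist2. Snai1 and Twist1, which are in the same length group, were at −0.04 and −0.40 on day 10 and at −0.31 and −0.19 on day 14, and Snai2 was at 0.24 and 0.12. The direction of each gene that passed 2-fold on day 10 or day 14 was thus the same within its length group, and Zeb1 and Prrx1, of like length, moved apart. The part of length in the changes was not tested further.

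**Figure D3:**
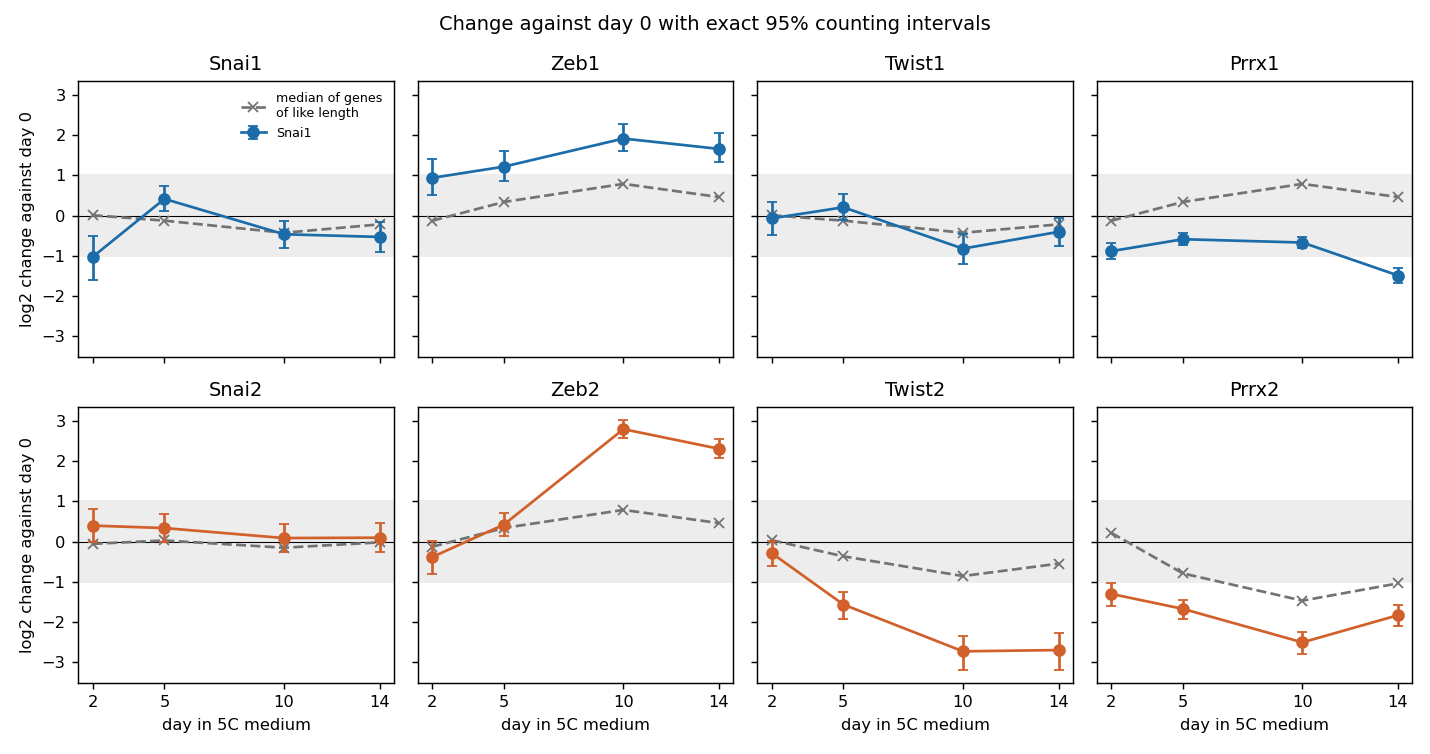
Log2 change against day 0 (TMM-normalised counts, pseudocount 1) by day of 5C medium, with 1 panel per gene and exact 95% counting intervals as bars. The grey band marks changes within 2-fold, and the dashed line with crosses is the median change of genes of like length. Zeb1 and Zeb2 lie above that line on day 10, at 1.92 and 2.80, and Twist2, Prrx1 and Prrx2 lie below it.

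Several annotated genes overlap the 8 genes, and whether reads were counted by strand is not stated in the sources used here. Gm10125, which overlaps Zeb1 on the opposite strand, had 5.72, 3.14, 11.9, 35.7 and 37.3 expected counts in the order of the days. Zeb2os, the antisense gene of Zeb2, had between 12.4 and 24.3. The counts of Zeb2os are small beside the 1700 counts of Zeb2 on day 10, but on day 2 they were 13 beside 73. On day 14 the 37.3 counts of Gm10125 stood beside 298 of Zeb1. For Twist2, Gm29100 on the opposite strand had at most 6.42 counts and Gm29101 at most 3, and for Prrx1, Gm26523 had at most 1.98 and Gm20471 was at 0.

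By profile over the 5 libraries, the 8 genes had few close neighbours among themselves. The measure was the root mean square difference between the log2 changes of the 4 later days, over 8255 other genes that reached 100 expected counts in any library. Among the members, Snai1 and Twist1 were nearest (0.53), followed by Snai2 and Twist1 (0.58) and by Prrx2 and Twist2 (0.68), whereas Zeb1 and Zeb2 were 0.95 apart and Twist1 and Twist2 were 1.74 apart. The 2 nearest genes outside the set were Igf2 (0.11) and Aplp1 (0.19) for Snai1, Keap1 (0.06) and Txndc11 (0.07) for Snai2, and Trim47 (0.09) and Lxn (0.11) for Twist1. They were Mdm4 (0.07) and Crot (0.09) for Zeb1, and Negr1 (0.26) and Atp2b4 (0.34) for Zeb2, which had the most distant neighbours of the 8. They were Lgals3 (0.09) and Pkm (0.11) for Twist2, Zbed3 (0.13) and Pls3 (0.15) for Prrx1, and Nip7 (0.11) for Prrx2.

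Genes that work with these factors were taken in 7 lists of the pathway, with 139 genes in all, and their changes are given with TMM scaling. In TPM the median of all genes lies higher by the shift given above, single genes differ from that shift in both directions, and small changes can turn sign. Of the bHLH partners and their inhibitors, 8 of 9 genes were kept, of which 1 was above and 5 were below 2-fold on day 14, with a median change of −2.15 beside 0.07 for all genes. Tcf4 (E2-2), an E protein that pairs with Twist proteins, went from 10.7 TPM in MEFs to 106 and 65.9 TPM in the last 2 libraries (log2 2.09 and 1.94), and Tcf12, another, from 11.7 to 78.1 and 36.4 TPM (1.56 and 0.79). The third E protein, Tcf3 (E2A), was at 0.12 and 0.22. Id1 and Id3, which bind E proteins and keep them from DNA, were at −2.62 and −2.68 on day 10 and −2.60 and −2.02 on day 14, from 324 and 556 TPM on day 0, and Hand2, a bHLH factor, was at −3.00 on day 14.

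The corepressors and chromatin partners (15 of 15 kept) and the regulators of protein stability (18 of 18 kept) had 3 above and 1 below, and 1 above and 2 below, on day 14, with medians of 0.01 and −0.03, beside the 24.5% above and 19.9% below among all genes. Ctbp1, the corepressor of Zeb proteins, was at −0.16 on day 14 at 162 TPM, Ctbp2 at −0.51, Hdac1 at −0.10, Hdac2 at −0.38 and Smarca4 at 0.01. The exceptions were Kat2b (PCAF, an acetyltransferase), which went from 1.70 to 25.9 TPM (log2 2.26), Sirt1 (1.13, 0.44 to 1.93; named after its value was seen), Suv39h1 (1.01), and Ajuba, a LIM protein that binds Snai1, at −1.99. Of the stability list, Fbxl5, a ubiquitin ligase subunit known to act on Snai1, was at 1.73 on day 5 and 1.23 on day 14, and Loxl2 was at −1.17 on day 14. Gsk3a (−0.22), Ctdsp1 (0.66), Cops2 (−0.06), Siah1a (0.67) and Lats2 (−0.71) were within 2-fold on that day.

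Of 26 other EMT and mesenchymal transcription factors, 20 were kept, with 3 above and 7 below on day 14 and a median of −0.28. Hmga2, a chromatin protein of embryonic cells, went from 237 to 25.2 TPM (−4.10) and Osr1 from 24.7 to 17.2 TPM (−1.38 with TMM), while Runx2, a regulator of bone formation, went from 5.59 to 80.5 TPM (2.93) and Osr2 from 2.03 to 40.7 TPM (3.32). Sox4 was at 0.07. Of 21 genes for upstream signals, 5 were above and 4 below on day 14, with a median of 0.32. The TGF-beta receptors Tgfbr1 and Tgfbr2 were at 1.86 and 1.29, the ligand Tgfb3 at −2.97, the inhibitory Smad7, which is itself a TGF-beta target, at −3.55, and Notch1 at 3.47. Egr1 (1.06), Ctnnb1 (0.36) and Fgfr1 (0.15) had the highest mean levels of the list beside Tgfbr2.

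The genes on which these factors act are known as epithelial genes that are repressed and mesenchymal genes that go with the mesenchymal state. Of 27 epithelial genes only 8 were kept, 4 were at 0 in every library (Ocln, Grhl2, Ovol2 and Crb3), and Cdh1 had at most 2 counts in any library. At this depth a change of Cdh1 was not detectable. Epcam, whose promoter is shown above, had 0, 1, 4, 5 and 8 counts, so it was not kept, and its log2 change on day 14 was 3.03 with an interval from 0.62 upward without limit. Of the 8 that were kept, 1 was above and 5 were below on day 14. The 1 above, Cldn1, had 3 counts on day 0 and 11 on day 14, and its interval held 0 (−0.19 to 4.21). That of Krt8, 1 of those below, also held 0 (−4.11 to 0.50). Krt18, a keratin of simple epithelia, had 31, 162, 75, 14 and 5 counts in the order of the days, so its log2 change was 3.21 on day 2, 1.07 on day 5 and −2.53 on day 14. On day 2, 4 of the 8 kept genes were above 2-fold and 4 below. Those above included Krt8 at 1.23, whose interval held 0 (−0.12 to 2.85). Those below included Krt19 at −1.13, Cdh3 at −1.13 and Llgl2 at −1.67. Krt19 was lower in each library than in the one before, from 99.9 TPM to 2.22 TPM (−6.57), and Llgl2 and Cdh3 were at −1.88 and −0.95 on day 14. The 23 mesenchymal genes were all kept, with 6 above and 6 below on day 14 and a median of 0.47. Vim was at 0.47, Fn1 at −0.52 and Sparc at 0.77, the contractile genes Acta2 and Tagln at −7.81 and −6.48, S100a4 at −2.41, and the matrix genes Dcn and Mmp2 at 4.86 and 3.92.

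**Figure D4:**
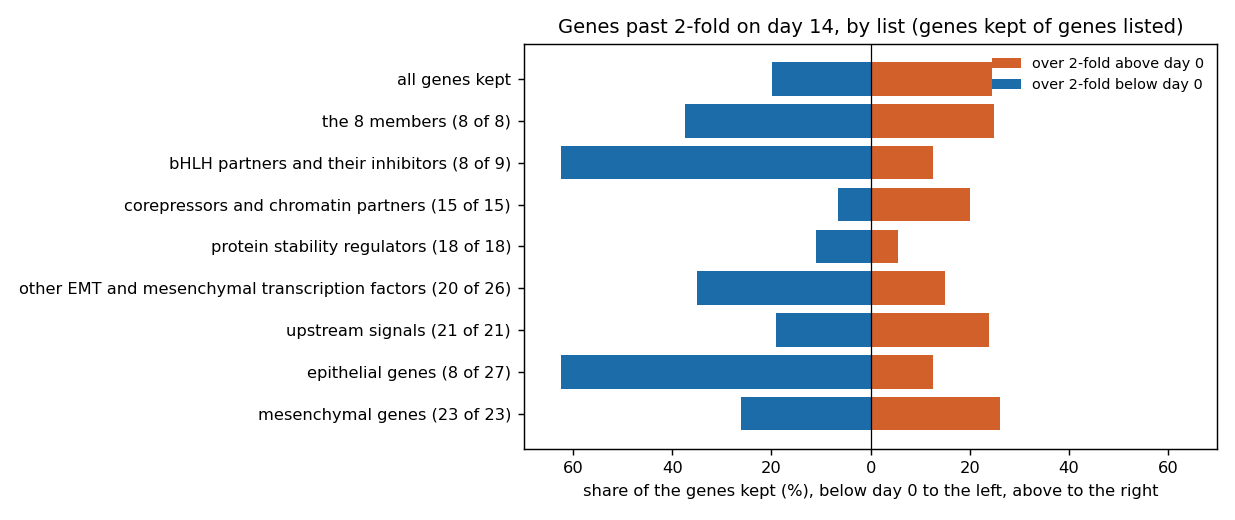
Share of the genes of each list, in percent of the genes kept, that were over 2-fold above (right, orange) or below (left, blue) day 0 on day 14, with all 13346 genes kept in the top bar. The labels give the genes kept and the genes listed. Of the bHLH partners and inhibitors and of the epithelial genes, 5 of 8 were below.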

How the data were processed

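Samples were grouped by the day in their labels, with 1 library per day. TruSeq RNA libraries were mapped to mm10 with Bowtie and quantified with RSEM, per the submitters' processing notes. Their versions, the annotation and the strand setting are not given in the sources used here. The authors deposited expected counts (RSEM's estimates, not scaled), TPM values (divided by RSEM's transcript length and scaled to the same sum in each library) and FPKM values (used here for no result), and gene lengths in bases. Symbols and coordinates came from GENCODE M21 for 27247 of 27729 identifiers, and the 482 without a match held 0.359% of the counts. TMM factors (0.808 to 1.19) were computed from rounded counts with edgeR 4.0.16 in R 4.3.3 and used for scaling only. Log2 changes had a pseudocount of 1. The 13346 genes that reached 10 expected counts in any library were kept, and the threshold was 2-fold. Intervals were exact Clopper-Pearson intervals (95%) of rounded counts. Reads carried no molecular identifiers, so intervals cover counting error only. A count of 0 allows up to 3 counts, which is 0.771 to 1.33 per 1000000 counts. On day 2, Gm42418 held 4.79% of the counts.

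The genes named were the 8 members, per pathway list the 4 with the highest mean TPM and the 2 largest rises and 2 largest falls on day 14 among genes with 100 or more counts, per marker list the gene highest on day 14 and defining markers at 0, the 2 nearest profiles of each member (1 of these genes is not reported here), and overlapping genes. Genes at 0 or with few counts in the epithelial list (Cdh1, Ocln, Grhl2, Ovol2, Crb3, Cldn1, Krt8) and Epcam were named after their values were seen. The members and lists were chosen with earlier results of these data known. The alternatives were DESeq2 1.42.0 size factors, TPM values, quantile normalization, total counts without the 10 most abundant genes of each library, a larger pseudocount (5), rounded counts with none, 10 counts in every library, no filter, and a 4-fold threshold. The computations were tested on simulated data. As an addition chosen after seeing the data, the steps from day 2 to 5 and from day 5 to 10 were put through the same scalings and pseudocounts. Promoter windows came from RefSeq (GRCm38.p6). Python 3.11.15 was used with numpy 2.4.6, pandas 2.3.3, scipy 1.17.1 and matplotlib 3.10.9.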

Additional observations from a re-analysis of the deposited data

How the results depend on the processing

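With 1 library per day, a difference between days cannot be told apart from a difference between cultures or library preparations, and the counting intervals do not cover either. No paired analysis was possible because each day has 1 library. Of the changes of single members and the shares of the paralog pairs under the alternatives, 200 values stayed within their counting interval and 60 did not. None of the 40 member changes moved with DESeq2 size factors, a pseudocount of 5 or rounded counts with none. In TPM 27 of 40 moved, with total counts without the most abundant genes 18, and with quantile normalization 6. The rest of the 60 were pair shares in TPM. Against the main values, the median of all genes shifted by 0.37, 0.42 and 0.33 with total counts in the last 3 libraries and by −0.13 and −0.11 with quantile normalization in the last 2. No member change that passed 2-fold reversed under these alternatives. In TPM the members above 2-fold on day 5 were 3 (main value 1), those below were 0 on day 5 (2) and 1 on day 14 (3). The 2 members below on day 2 were 1 with quantile normalization, with total counts and with a pseudocount of 5. At 4-fold, 0 members were below on day 2, 0 were above and 0 below on day 5, 1 was above on day 10, and 1 was above and 1 below on day 14. Of the 139 genes of the 7 pathway lists, 113 were kept. Those above day 0 on days 5, 10 and 14 were 17, 26 and 20, where 20.2%, 28.7% and 24.5% of all 13346 genes kept were. In TPM, 37, 60 and 48 of the 113 were above, beside 4269, 7057 and 5548 of all genes kept. Those below on days 5 and 10 were 23 and 30 of the 113, beside 13.6% and 22.3% of all genes kept. In TPM they were 13 and 17, beside 531 and 904 of all genes kept. With total counts, 30 were above and 15 below on day 5, beside 3832 and 997 of all genes kept. At 4-fold, 5 of the 113 were above and 9 below on day 2. At 2-fold these were 13 and 30, beside 15.2% and 13.1% of all genes kept. On the later days at 4-fold, 7 were above and 10 below on day 5, 12 above and 17 below on day 10, and 10 above on day 14. No share of all genes at 4-fold is given here. The causes were not tested, apart from the stricter threshold itself. Depth limited Snai1 on day 2 (38 counts), Twist2 on days 10 and 14 (55.9 and 45.6 counts) and most epithelial genes.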
